A study of Mus musculus with 6 samples.

Results

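The small leucine-rich proteoglycans described here are the products of 9 mouse genes, Dcn, Bgn, Lum, Fmod, Ogn, Aspn, Prelp, Omd and Podn, chosen by symbol and looked up by Ensembl identifier among the 49315 genes of the count table. All 9 were found, and all 9 passed the expression filter that left 16688 genes for testing. Polyadenylated RNA came from wild-type mouse tail-tip skin cells in 6 libraries, 2 per group. Fibroblasts had negative control lentiviral vectors (day 0), early cells had CRISPR activation vectors (day 7), and late cells had CRISPR activation vectors followed by colony isolation (day 22), the labels calling the last group induced cardiac progenitors. CRISPR activation uses a Cas9 that does not cut to bring transcriptional activators to chosen promoters (here in the SAM version). Which genes were activated is not stated in the labels. The labels call early replicate 1 early and early replicate 2 partially reprogrammed. The fit takes these 2 as replicates, so a difference in labelled state cannot be told apart from spread between replicates. That spread enters the p-values of all comparisons. The labels do not say whether the replicates came from separate animals or cultures, and every p-value here reflects only how far these libraries spread.

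Total counts lay between 20172874 and 40122999 per library. Values per gene are CPM, counts scaled to a common library size, after TMM scaling, and the floor of 3 counts equals 0.0843 to 0.142 CPM depending on the library. The libraries of a group differed widely: 5 libraries had between 1.49% and 2.16% of counts from the mitochondrial genome and late replicate 2 had 10.3%, and 11 cardiomyocyte markers summed to 52600 CPM in late replicate 2 against 83.6 CPM in late replicate 1. The labelled cell type was checked with 16 dermal fibroblast markers, which summed to 12940 and 12220 CPM in the fibroblast libraries and to between 3172 and 7447 CPM in the other 4, with none of the 16 at 0 in any library. Not all followed the sum, since 5 of the 16 were fitted higher in early cells than in fibroblasts, and 3 in late cells. Postn was among these and low in fibroblasts, with its values given under other observations.

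Small leucine-rich proteoglycans are secreted proteins of the extracellular matrix whose core is a curved run of leucine-rich repeats. Most carry chondroitin, dermatan or keratan sulfate chains, and several bind fibrillar collagen and set how fibrils assemble and how wide they grow. They are abundant in skin, tendon, cartilage and bone, are made mainly by fibroblasts and related mesenchymal cells, and several also bind growth factors such as TGF-beta. In bulk RNA, fewer cells of a type and less RNA per cell cannot be told apart.

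Across the 9 genes the libraries fell into 2 patterns, with Bgn and Ogn outside both. Fmod, Aspn, Prelp and Omd were higher in both fibroblast libraries than in all 4 libraries with CRISPR activation vectors, an ordering that 23.8% of all tested genes had. Dcn, Lum and Podn instead were highest in early replicate 2 and late replicate 2, above both fibroblast libraries, as were 6.12% of all tested genes. No difference between groups passed the test. Of the 9 genes, 0 were called by edgeR at an adjusted p under 0.05 between early cells and fibroblasts, 0 between late cells and fibroblasts and 0 between late and early cells, where 1.53%, 1.42% and 0% of all tested genes were called. Lower calls alone were 0 of 9 in early and 0 of 9 in late cells, against 0.833% and 0.779% of tested genes, and higher calls were also 0, against 0.695% and 0.641%. At an unadjusted p under 0.05 edgeR also gave 0 of 9 in each comparison, against 29.8%, 32.5% and 10.2% of all tested genes. DESeq2 called 0 of 9 in each, while it called 4006, 4651 and 1087 genes in all. At its unadjusted p under 0.05 it gave 3, 2 and 1 of the 9, against 19%, 21.7% and 8.62% of the 31952 genes it tested. The median log2 fold change of the 9 was -1.88 in early cells and -1.51 in late cells relative to fibroblasts, against 0.0038 and 0.111 for all tested genes. The early median was -6.18 without early replicate 2 and -0.97 without early replicate 1.

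Both early libraries lay below both fibroblast libraries for 5 of the 9 (Fmod, Ogn, Aspn, Prelp and Omd) and above them for 0, where 34.4% of all tested genes lay below and 32.3% above. Both late libraries lay below for 5 (Bgn, Fmod, Aspn, Prelp and Omd) and above for 0, against 32.9% below and 35.7% above. With early replicate 2 left out, all 9 lay below in the remaining early library (47.2% of tested genes), and with late replicate 2 left out, 8 did in the remaining late library (44.8%). Leaving out early replicate 1 gave 5 (43.7%) and late replicate 1 gave 6 (40.9%). Leaving out fibroblast replicate 1 gave 5 in early (40.2%) and 6 in late cells (38.1%), and fibroblast replicate 2 gave 5 (39.8%) and 5 (38%). These counts were chosen after seeing the data. Prelp in early cells passed the threshold in 1 alternative fit, that without early replicate 2, at a log2 fold change of -4.80. That fit keeps 1 early library, which is assumed to vary like the other groups. It also called more genes over all than the main fit, so this pass is not read as a result about Prelp.

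**Figure D1:**
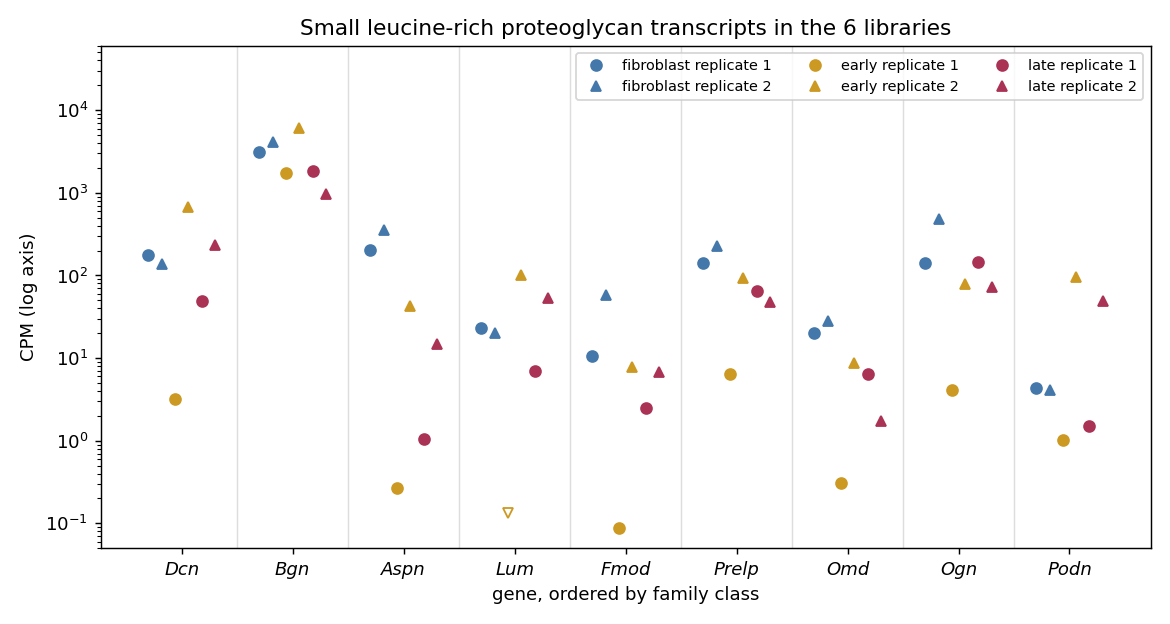
CPM of each gene (log axis) in the 6 libraries, circles for replicate 1 and triangles for replicate 2, coloured by group; the open inverted triangle marks Lum in early replicate 1, which had 0 counts and is drawn at the floor of 0.134 CPM. Early replicate 1 is the lowest library for 8 of the 9 genes, and Bgn spans the narrowest range.

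Class I of the family holds Bgn, Dcn and Aspn. Bgn encodes biglycan, which carries chondroitin or dermatan sulfate chains and binds collagen and TGF-beta (ENSMUSG00000031375, chromosome X, 73483602 to 73495933 in GRCm38, as are all positions here). Bgn was at 3089 and 4182 CPM in the fibroblast libraries, 1718 and 6169 in early cells and 1836 and 959 in late cells. The early libraries lay on either side of the fibroblast libraries, while both late libraries were below them. The log2 fold change was 0.12 ± 0.68 (SE, n = 2 per group) in early cells, with a 95% interval from -1.61 to 1.85 (edgeR adjusted p = 0.929), and -1.38 ± 0.70 in late cells, with an interval from -3.14 to 0.38 (edgeR adjusted p = 0.227).

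Dcn encodes decorin, the collagen-binding proteoglycan that limits fibril width and sequesters TGF-beta (ENSMUSG00000019929, chromosome 10, 97479609 to 97518143). Dcn was at 176 and 140 CPM in the fibroblast libraries, 3.21 and 679 in early cells and 48.7 and 232 in late cells. Each pair of libraries with CRISPR activation vectors therefore enclosed the fibroblast values, 1 library far below and the other above. The early libraries differed 212-fold (exact 95% counting interval 168 to 271), and the late ones 4.76-fold (4.48 to 5.06). Fitted log2 fold changes were 1.11 ± 1.91 in early cells and -0.17 ± 1.89 in late cells, neither larger than the spread between replicates (edgeR adjusted p = 0.736 and 0.957). Such counting intervals cover counting error only.

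Aspn encodes asporin, a relative of decorin that binds collagen and TGF-beta (ENSMUSG00000021388, chromosome 13, 49544443 to 49567565). Aspn was at 206 and 356 CPM in the fibroblast libraries, 0.267 and 42.7 in early cells and 1.04 and 14.8 in late cells. All 4 libraries with CRISPR activation vectors were below both fibroblast libraries, the nearest being early replicate 2. The log2 fold change was -3.71 ± 2.13 in early cells (95% interval -9.09 to 1.67, edgeR adjusted p = 0.299) and -5.14 ± 2.28 in late cells (-10.9 to 0.62, adjusted p = 0.186), the largest fitted difference of the 9 genes. Both intervals include 0. The early libraries differed 160-fold (73.2 to 437) and the late ones 14.2-fold (9.53 to 22.2).

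Class II holds Lum, Fmod, Prelp and Omd, most of whose products carry keratan sulfate chains or sulfated tyrosines. Lum encodes lumican, which orders collagen fibrils in cornea and skin (ENSMUSG00000036446, chromosome 10, 97565128 to 97572703). Lum was at 23.2 and 19.97 CPM in fibroblasts, at 0 counts and 102 CPM in early cells and at 7.003 and 53.4 CPM in late cells. It thus followed Dcn, with early replicate 2 at least 762-fold above the floor of 3 counts in early replicate 1. Log2 fold changes were 1.24 ± 2.29 in early and 0.49 ± 2.26 in late cells (edgeR adjusted p = 0.756 and 0.893).

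Fmod encodes fibromodulin, a collagen-binding protein with sulfated tyrosines (ENSMUSG00000041559, chromosome 1, 134037254 to 134048277). Fmod was at 10.5 and 57.4 CPM in the fibroblast libraries, 0.0891 and 7.90 in early cells and 2.46 and 6.82 in late cells. Both fibroblast libraries were above all others, but they differed 5.48-fold (4.86 to 6.20), Fmod being the 1 member over 4-fold apart there; 2.52% of tested genes stood that far higher in fibroblast replicate 2. Fmod had 2 counts in early replicate 1, so its ratio of 88.7 between the early libraries carries a wide exact counting interval of 24.2 to 739. Log2 fold changes were -3.09 ± 1.80 in early and -2.87 ± 1.77 in late cells (edgeR adjusted p = 0.303 for both).

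Prelp encodes a protein with a basic, arginine- and proline-rich end that links basement membranes to collagen (ENSMUSG00000041577, chromosome 1, 133910304 to 133921414). Prelp was at 140 and 227 CPM in the fibroblast libraries, 6.41 and 93.2 in early cells and 64.1 and 47.3 in late cells. The late libraries lay close together and below both fibroblast libraries, and early replicate 1 was the lowest. Log2 fold changes were -1.88 ± 1.13 in early and -1.72 ± 1.12 in late cells (edgeR adjusted p = 0.316 and 0.324). Of its 3615 exonic bases, 350 are shared with Gm15851 on the opposite strand, and counts there are uncertain if strand was ignored.

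Omd encodes osteomodulin, an acidic keratan sulfate proteoglycan best known from bone (ENSMUSG00000048368, chromosome 13, 49582462 to 49592822). Omd was at 20.4 and 27.8 CPM in the fibroblast libraries, 0.312 and 8.66 in early cells and 6.34 and 1.71 in late cells. In the late group replicate 1 was 3.70-fold higher, the reverse of Aspn, its neighbour. Log2 fold changes were -2.42 ± 1.43 in early and -2.58 ± 1.44 in late cells (edgeR adjusted p = 0.310 and 0.262).

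Ogn, of class III, encodes osteoglycin, also called mimecan, a matrix protein of connective tissue and heart (ENSMUSG00000021390, chromosome 13, 49608046 to 49624501). Ogn was at 141 and 477 CPM in the fibroblast libraries, 4.14 and 79.6 in early cells and 146 and 71.9 in late cells. Early libraries were below both fibroblast libraries, whereas late replicate 1 lay between them. The log2 fold change was -2.88 ± 1.40 in early cells (95% interval -6.40 to 0.64, edgeR adjusted p = 0.233) and -1.51 ± 1.33 in late cells (-4.85 to 1.84, adjusted p = 0.455).

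Podn, of class V, encodes podocan, a collagen-binding glycoprotein described in kidney podocytes and in vascular smooth muscle (ENSMUSG00000028600, chromosome 4, 108014791 to 108096445). Podn was at 4.33 and 4.12 CPM in the fibroblast libraries, 1.02 and 95.4 in early cells and 1.501 and 48.8 in late cells. The fibroblast libraries agreed closely, and replicate 2 of each group with CRISPR activation vectors stood above them while replicate 1 stood below. Replicate 2 exceeded replicate 1 by 93.1-fold (61.9 to 147) in early and 32.5-fold (23.4 to 46.6) in late cells. Podn had the largest positive fitted log2 fold changes of the 9, 3.51 ± 2.24 in early and 2.58 ± 2.16 in late cells, neither past the test (edgeR adjusted p = 0.344 and 0.433).

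**Figure D2:**
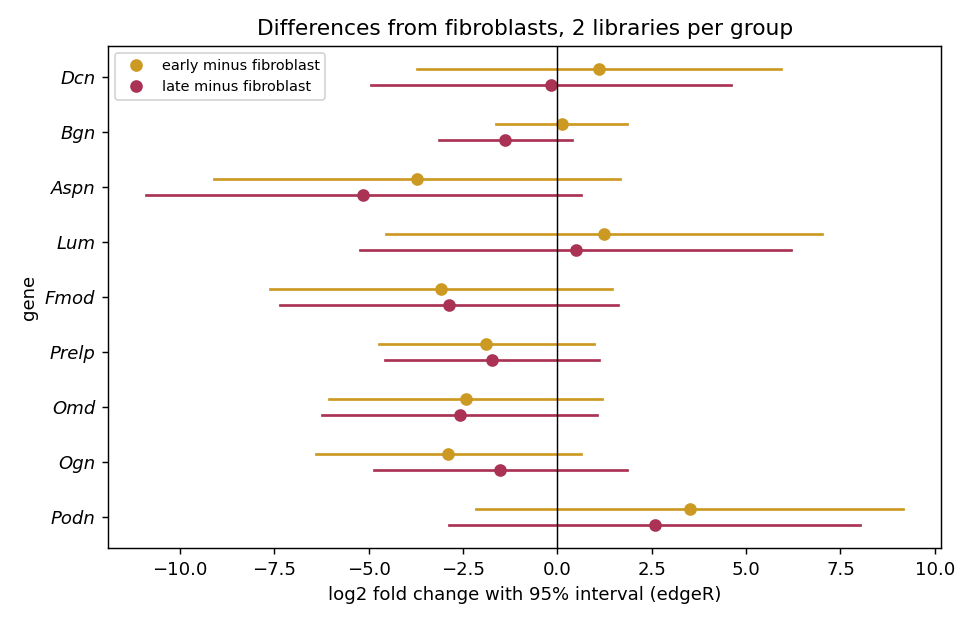
Fitted log2 fold change of each gene from fibroblasts (points) with its 95% interval (lines) in early and late cells, 2 libraries per group. Every interval crosses 0; the narrowest are those of Bgn, and Aspn in late cells lies farthest from 0 at -5.14.

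Between late and early cells, fitted differences of the 9 genes ran from -1.496 ± 0.70 for Bgn (edgeR adjusted p = 0.543) to 1.38 ± 1.32 for Ogn (adjusted p = 0.781) on the log2 scale. The late libraries were both below or both above the early ones for 0 of the 9, where 17.6% of tested genes lay below and 16.1% above. The early libraries are shared with the comparison to fibroblasts.

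Levels of different genes were compared as CPM per kilobase of merged exons. Bgn was the most abundant of the 9 in all 6 libraries, at 506 and 686 in fibroblasts, 282 and 1011 in early cells and 301 and 157 in late cells on that scale. In fibroblasts Aspn (87.5 and 151), Ogn (54.9 and 186) and Prelp (38.7 and 62.9) came next, and the ranges of Ogn overlapped those of both others. Dcn (30.1 and 23.9) lay below Prelp. Omd (9.06 and 12.4), Lum (9.48 and 8.16) and Fmod (3.17 and 17.4) overlapped each other, and Podn (1.01 and 0.964) was the least abundant. Podn was also the lowest of the 9 in late replicate 1, but ranked 6 of 9 in early replicate 2 and late replicate 2.

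The 9 genes summed to 740 and 1148 on that scale in fibroblasts, 286 and 1273 in early cells and 391 and 280 in late cells. Bgn made up 68.4% and 59.7% of the summed length-scaled level in fibroblasts, 98.4% and 79.5% in early cells and 77.0% and 56.1% in late cells. Aspn held 11.8% and 13.2% in fibroblasts and between 0.0397% and 2.25% in the other 4 libraries, so its share did not overlap between them. Dcn held 4.07% and 2.08% in fibroblasts, 0.192% and 9.14% in early cells and 2.13% and 14.2% in late cells. Relative to Aspn, Dcn stood at a ratio of 0.344 and 0.158 in fibroblasts and between 4.84 and 18.9 in the other 4 libraries. Ogn kept 14.5% and 9.99% in late cells, near its 7.41% and 16.2% in fibroblasts.

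**Figure D3:**
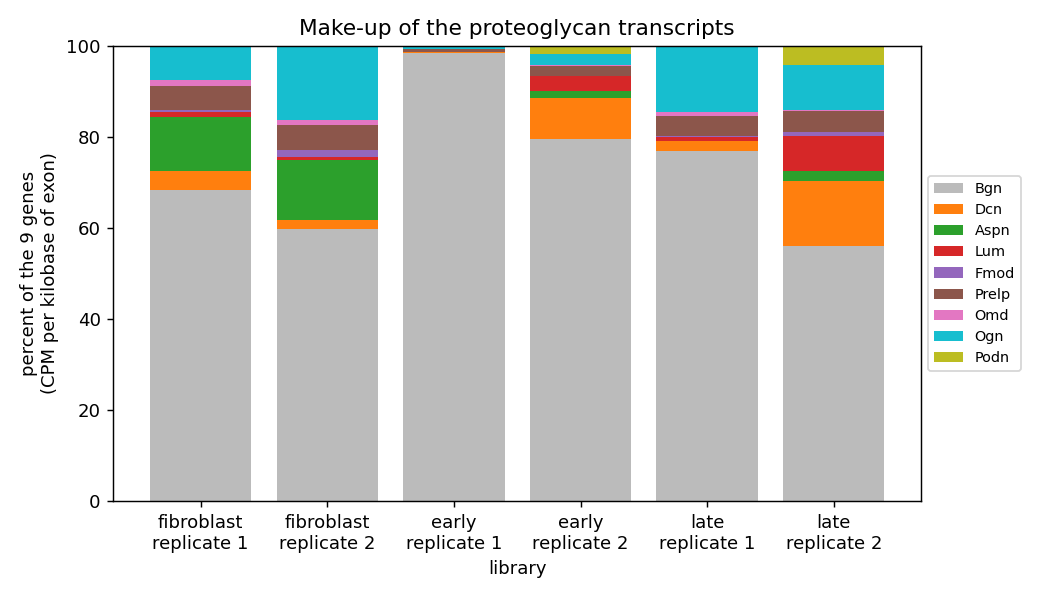
Share of each gene in the summed level of the 9 (CPM per kilobase of exon, bars stacked to 100%) in each library. Bgn (light grey) holds 98.4% in early replicate 1, and the Aspn share visible in both fibroblast libraries (11.8% and 13.2%) is at most 2.25% elsewhere.

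Of the 9 genes, 7 lie in 3 clusters, which are Prelp and Fmod on chromosome 1, Dcn and Lum on chromosome 10, and Aspn, Omd and Ogn on chromosome 13. The 4 genes higher in both fibroblast libraries than in all others come from the first and last of these. Upstream sequences (RefSeq, GRCm38.p6) are shown for these 2 clusters because their members were all lower in early cells than in either fibroblast library. Each is the 250 bases before the RefSeq start, on the gene's own strand (the Prelp window holds 13 bases of GENCODE exon), and capitals mark matches on either strand to the letters TATAA of the TATA element, to CCAAT of the element of that name, to the GATA-factor letters GATAA, or to the AP-1 letters TGANTCA, where neighbouring matches may overlap.
Aspn, chr13:49544193-49544442, plus strand: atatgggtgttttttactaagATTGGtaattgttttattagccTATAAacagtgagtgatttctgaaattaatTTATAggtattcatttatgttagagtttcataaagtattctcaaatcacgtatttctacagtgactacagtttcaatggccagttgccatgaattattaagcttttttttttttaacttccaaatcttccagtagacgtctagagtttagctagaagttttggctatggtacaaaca
Omd, chr13:49582212-49582461, plus strand: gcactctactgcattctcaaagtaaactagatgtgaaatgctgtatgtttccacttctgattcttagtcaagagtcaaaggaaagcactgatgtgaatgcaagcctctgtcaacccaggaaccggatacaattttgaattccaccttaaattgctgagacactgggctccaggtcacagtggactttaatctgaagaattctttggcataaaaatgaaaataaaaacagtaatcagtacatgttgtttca
Ogn, chr13:49607765-49608014, plus strand: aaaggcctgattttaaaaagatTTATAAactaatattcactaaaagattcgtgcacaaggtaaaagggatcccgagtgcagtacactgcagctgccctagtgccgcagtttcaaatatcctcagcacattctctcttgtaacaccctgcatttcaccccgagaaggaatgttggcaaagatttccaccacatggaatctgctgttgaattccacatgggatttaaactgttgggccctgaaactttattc
Fmod, chr1:134037004-134037253, plus strand: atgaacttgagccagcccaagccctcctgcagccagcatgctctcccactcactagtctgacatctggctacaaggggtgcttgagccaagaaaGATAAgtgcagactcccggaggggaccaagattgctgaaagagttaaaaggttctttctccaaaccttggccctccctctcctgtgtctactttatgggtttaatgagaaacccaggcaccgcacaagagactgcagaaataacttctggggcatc
Prelp, chr1:133921402-133921651, minus strand: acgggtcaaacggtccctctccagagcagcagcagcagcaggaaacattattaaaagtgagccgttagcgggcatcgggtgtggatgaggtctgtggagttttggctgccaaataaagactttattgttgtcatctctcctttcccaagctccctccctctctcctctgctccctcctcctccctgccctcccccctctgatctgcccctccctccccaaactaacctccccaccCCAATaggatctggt
None of these motifs was in all 5 windows: Aspn and Ogn each held TATAA, Aspn and Prelp held CCAAT, Fmod held GATAA, and the Omd window held none of the 4. Of 32851 windows of this length in the table, 22.8% held TATAA, 33.8% CCAAT, 22.6% GATAA and 6.75% TGANTCA. The letters CANNTG (E-box) were in the Aspn, Fmod and Ogn windows and in 66.2% of all windows. A match describes letters only and is not a binding site. The table matched 7 of the 9 genes, and Dcn and Lum were not among them.

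The genes beside the clusters had the following values. Nol8, beside Ogn, was at 27.9 and 27.7 CPM in the fibroblast libraries, 33.3 and 21.3 in early cells and 32.6 and 25.1 in late cells. Cenpp, whose gene body on the opposite strand spans the chromosome 13 cluster, was at or below 1.32 CPM in fibroblasts and between 1.94 and 9.58 in the other libraries, and shares 7 exonic bases with Aspn. Ecm2, a related leucine-rich repeat gene on the other side of Aspn, reached 16.8 CPM in late replicate 2, against 2.18 or less elsewhere. Btg1, an inhibitor of proliferation next to Dcn, was at 94.2 and 69.1 CPM in the fibroblast libraries, 200 and 164 in early cells and 143 and 127 in late cells, without the gap between early libraries that Dcn showed. Its relative Btg2, next to Fmod, was between 18.1 and 52.0 CPM in all libraries. Near Podn, Scp2, whose gene body overlaps it on the same strand (68.9 CPM in early replicate 1 against 243 in early replicate 2, and 60.6 against 156 in late), and Echdc2 (9.09 against 30.5, and 7.80 against 16.6) were also higher in replicate 2 of both groups.

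The gap between the 2 early libraries was wide for these 9 genes. Early replicate 2 was over 4-fold above early replicate 1 for 8 of the 9 genes, all but Bgn at 3.59-fold, where 7.24% of all tested genes were. The reverse held for 0 of 9 in early cells (4.01% of tested genes), 0 in late cells (4.55%) and 0 in fibroblasts (3.09%). Summed without Bgn, the other 8 stood at 15.5 CPM in early replicate 1 and 1109 CPM in early replicate 2, against 721 and 1309 CPM in fibroblasts. In late cells replicate 2 was over 4-fold above replicate 1 for 4 of the 9 (Dcn, Lum, Aspn and Podn), against 9.24% of tested genes. Early replicate 1 was the lowest of the 6 libraries for 8 of the 9 genes and for 18.6% of tested genes. Of the 5 other tested genes of the family, 2 were over 4-fold higher in early replicate 2, with a median log2 difference of 0.818. Of the fibroblast markers, 8 of 16 were over 4-fold higher in early replicate 2. The collagens that these proteoglycans bind were over 4-fold higher there for 6 of 14. The part of such markers in the members' values was not tested.

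**Figure D4:**
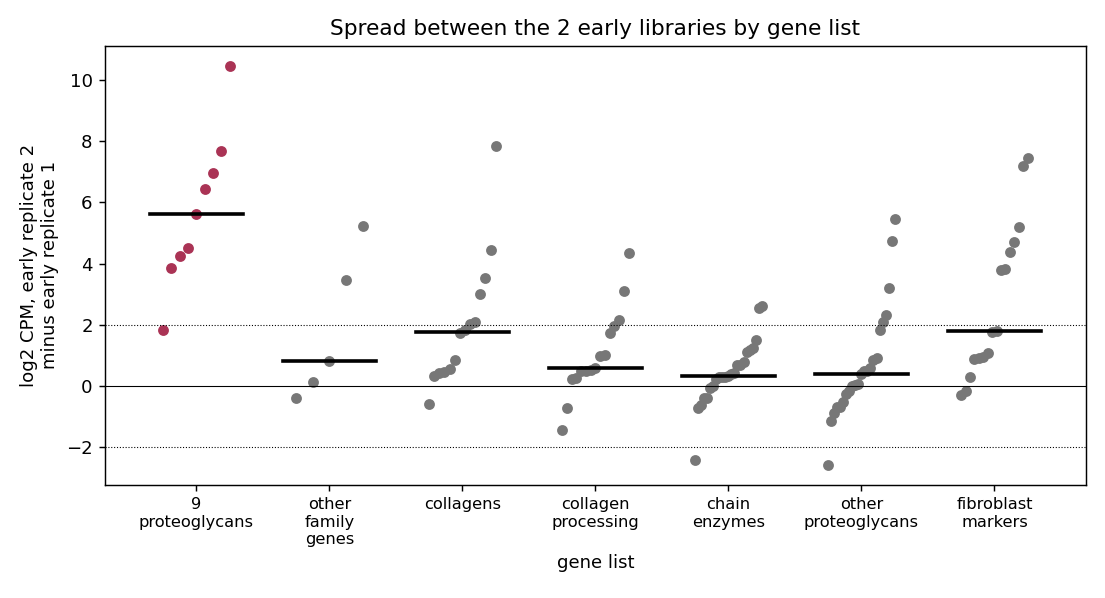
Log2 CPM in early replicate 2 minus early replicate 1 for each tested gene of 7 lists (points) with the list median (bar); dotted lines mark 4-fold. The 9 proteoglycans have a median of 5.63 and other family genes 0.818. Fibroblast markers have 1.78, collagens 1.76 and the enzymes that build chondroitin and dermatan sulfate chains 0.326.

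Like Fmod, Aspn, Prelp and Omd, most tendon markers were lower outside fibroblasts, but they lacked the gap between the early libraries. Early replicate 2 was over 4-fold above early replicate 1 for 0 of 6 tested (7.24% of all tested genes). The reverse held for 2 of 6 (4.01%). Tendon markers were lower in both early than in both fibroblast libraries for 5 of 6 tested members (34.4% of all tested genes), and in late cells also for 5 of 6 (32.9%). Their 7 listed genes summed to 215 and 111 CPM in the fibroblast libraries, 8.78 and 2.65 in early cells and 10.4 and 24.4 in late cells. Of the 6 tested, 2 were called lower in early and 1 in late cells (0.833% and 0.779% of all tested genes). Mkx, a tendon transcription factor, fell (log2 fold change -4.33 in early and -3.68 in late cells, edgeR adjusted p = 0.0412 and 0.0493), and Fibin fell in early cells (-7.15, edgeR adjusted p = 0.0472). With either fibroblast replicate left out, edgeR called 0 of all tested genes in early or late cells, so these calls are lost there too. Tnmd, a tendon membrane protein, stood at 5.44 and 6.85 CPM in the fibroblast libraries, with 0 counts in both early libraries and 3 and 1 in the late ones. Fmod and Prelp are also expressed in tendon, and Kera, a member of this family in the tendon list, stayed at or below 0.588 CPM. Leukocyte markers summed to 306 and 1291 CPM in fibroblasts against 51.2 to 254 in the other libraries. Of 13 tested, 12 were below both fibroblast libraries in both early libraries (34.4% of all tested genes), and 7 in both late libraries (32.9%). Cd14 went the other way, at 20.25 and 35.4 CPM in fibroblasts, 110.6 and 40.2 in early and 67.1 and 73.0 in late cells. The part of these cells in the members' values was not tested.

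In late replicate 2, where Dcn, Lum and Podn exceeded fibroblasts, markers of several other cell types were high as well. Cardiomyocyte markers were over 4-fold above late replicate 1 for 11 of 11, endothelial markers for 7 of 7 (summed 827 against 34.5 CPM) and leukocyte markers for 12 of 13. Adipocyte and erythroid markers were for 3 of 3 tested (summed 1320 against 2.33 CPM) and smooth muscle markers for 2 of 8. Of all tested genes 9.24% were. The part of these cells in the members' values was not tested. Early replicate 2, which shared the high Dcn, Lum and Podn, had endothelial markers at 13.7 CPM in sum, against 10.7 in early replicate 1 and 7.92 and 13.9 in fibroblasts. Its cardiomyocyte markers summed to 52.3 CPM, against 19.6 in early replicate 1 and 18.8 and 137 in fibroblasts. In fibroblasts 11 of 11 were over 4-fold higher in replicate 2 than in replicate 1, as were 2.52% of all tested genes. Bone markers summed to between 58.9 and 77.2 CPM in all 6 libraries, with Omd not among them. Cartilage markers summed to 48.9 and 59.4 CPM in the fibroblast libraries, 109 and 127 in early cells and 134 and 78.3 in late cells. Sox9, a transcription factor of cartilage and other tissues, made up most of that sum in early (98.3 and 116) and late cells (103 and 61.3). Of the 8 tested, 4 were fitted higher and 4 lower, in early as in late cells. In early cells edgeR called Sox9 higher (adjusted p = 0.0456) and Hapln1 lower (adjusted p = 0.0477), against 0.695% and 0.833% of all tested genes. In late cells it called 0. Col2a1 was not called. Its early values (6.28 and 4.12 CPM) lay below both fibroblast values (16.3 and 39.2), and its late values were 19.9 and 5.93. Matn1 and Cnmd were at or below 0.225 CPM in all libraries, and Col9a1 was at 0 in fibroblasts and early cells.

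Further members of the family were examined in the same way. Of 9 such genes (Epyc, Kera, Optc, Chad, Chadl, Nyx, Tsku, Podnl1 and Ecm2), 5 passed the filter and 0 were called in any comparison by edgeR. At an unadjusted p under 0.05 were also 0, against 29.8%, 32.5% and 10.2% of all tested genes. Tsku, a secreted inhibitor of Wnt and TGF-beta family signals, was at 48.3 and 62.8 CPM in the fibroblast libraries, 37.9 and 66.9 in early cells and 53.0 and 23.4 in late cells. Podnl1, a relative of Podn, was between 2.96 and 7.05 CPM in all libraries and did not show the high replicate 2 values of Podn.

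The fibrillar and fibril-associated collagens that the proteoglycans bind changed in both directions. Of 14 tested, edgeR called 1 higher and 1 lower in early cells (0.695% and 0.833% of all tested genes). In late cells it called 1 higher and 2 lower (0.641% and 0.779%). Col12a1, a collagen on the fibril surface that decorin and fibromodulin are known to contact, was at 2327 and 5191 CPM in the fibroblast libraries, 65.7 and 81.9 in early cells and 61.3 and 21.2 in late cells (log2 fold change -5.67 ± 0.77 and -6.51 ± 0.80, edgeR adjusted p = 0.0457 and 0.0466). Col14a1, a fibril-associated collagen of the same kind, went the other way, from 0.940 and 1.15 CPM to 60.7 and 81.8 in early and 113 and 57.1 in late cells (6.09 ± 0.48 and 6.34 ± 0.48, adjusted p = 0.0221 and 0.0304). Col11a1, a minor fibril component, fell in late cells by 3.79 on the log2 scale (adjusted p = 0.0485). As for the tendon markers, calls here and in the other lists were lost with fibroblast replicate 1 or 2 left out, where 0 genes were called. Over all tested genes edgeR called 6 in early cells without early replicate 1 and 8 in late cells without late replicate 2, against 546 without early replicate 2 and 1058 without late replicate 1. Leaving out a late library gave 661 (replicate 1) and 823 (replicate 2) in early cells, and leaving out an early one gave 603 and 734 in late cells.

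Among 24 enzymes of chondroitin and dermatan sulfate synthesis, 23 were tested, and 17 had both early libraries below both fibroblast libraries, as did 17 in late cells (34.4% and 32.9% of all tested genes). Only Chsy3, a chondroitin synthase, was called, where 1.53% of all tested genes were in early and 1.42% in late cells. It was at 14.0 and 19.2 CPM in fibroblasts and at or below 0.834 in the other libraries (log2 fold change -4.90 ± 0.53 in early and -4.51 ± 0.51 in late cells, edgeR adjusted p = 0.0339 and 0.0434). The median log2 fold change of the 23 was -0.66 in early and -0.99 in late cells. For keratan sulfate, 8 of 10 enzymes were tested and St3gal2, a sialyltransferase, fell in both (-1.76 ± 0.22 and -1.88 ± 0.22, edgeR adjusted p = 0.0408 and 0.0439). There was no other call, beside the same shares of all tested genes. Chst1, a keratan sulfate sulfotransferase chosen after its values were seen, did not pass, at 12.3 and 3.59 CPM in fibroblasts against 148 and 47.5 in early and 77.2 and 77.9 in late cells (adjusted p = 0.0743 and 0.0781). Of the tyrosine sulfotransferases, which modify fibromodulin and osteomodulin, Tpst1 was between 37.7 and 99.7 CPM and Tpst2 between 44.1 and 120 CPM. Neither was called (0 of 2 by edgeR). At an unadjusted p under 0.05 were 1 in early and 1 in late cells, against 29.8% and 32.5% of all tested genes.

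Among 15 tested genes of collagen cross-linking and processing, Pcolce2, an enhancer of procollagen cleavage, fell in both early and late cells (log2 fold change -4.95 ± 0.55 and -3.75 ± 0.52, edgeR adjusted p = 0.0357 and 0.0485), and the other 14 did not pass. Beside this list and those named next, 1.53% of all tested genes were called in early and 1.42% in late cells. Of 11 tested growth factors that these proteoglycans bind or are reported to modulate, 0 were called in early cells. At an unadjusted p under 0.05 by edgeR were 5, against 29.8% of all tested genes. Fgf2 fell in late cells, from 264 and 195 CPM to 24.0 and 20.2 (-3.38 ± 0.29, edgeR adjusted p = 0.0304). Tgfb1, the ligand most often linked to decorin, was at 82.5 and 76.5 CPM in the fibroblast libraries, 127 and 47.6 in early cells and 112 and 101.5 in late cells. Of 15 tested receptors, Egfr, a receptor reported to bind decorin, rose in early cells from 13.8 and 12.1 CPM to 80.9 and 97.3 (2.78 ± 0.34, adjusted p = 0.0408), and was at 82.7 and 47.1 CPM in late cells (adjusted p = 0.0507).

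Proteases reported to cut these proteoglycans gave 0 calls among 8 tested, where 1.53% of all tested genes were called in early and 1.42% in late cells. At an unadjusted p under 0.05 by edgeR were 2 in early and 3 in late cells, against 29.8% and 32.5% of all tested genes. Mmp3 was at 2924 and 260 CPM in the fibroblast libraries, 782 and 5011 in early cells and 356 and 407 in late cells, and Mmp14 was at 624 and 1200, 253 and 795, and 223 and 132 CPM. Proteoglycans outside the family gave 0 calls among 23 tested, with 9 and 11 at an unadjusted p under 0.05 (29.8% and 32.5% of all tested genes). Hspg2, perlecan of basement membranes, was between 447 and 1021 CPM throughout. Gpc4, a glypican of the cell surface, was at 681 and 838 CPM in the fibroblast libraries, 51.5 and 182 in early cells and 73.5 and 44.6 in late cells (edgeR adjusted p = 0.0804 and 0.0613).

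The genes whose log2 CPM over the 6 libraries was most like that of each member were ranked by Pearson's r among 9782 genes with a mean log2 CPM of at least 3, as a description of 6 points that share library and depth. For Dcn the nearest were Tmtc1 (r = 0.994), Lum (0.989) and Slc7a7 (0.988), so the neighbours Dcn and Lum were among each other's nearest 3. For Ogn they were Lrp3 (0.999), Armcx4 (0.979) and Prelp (0.965). For Aspn they were Msrb3 (0.995), Pkd2l2 (0.994) and BX649560.1 (0.993), and for Prelp Fcgrt (0.995), Ift122 and Pigc (0.979 each). Those of Bgn were Stim1, Fzd2 and Ddx50 (0.994 each), of Fmod Amn1 (0.992), Hcfc1r1 (0.985) and Prickle1 (0.979), and of Lum, beside Dcn, Zhx3 (0.984) and Tmtc1 (0.982). Omd was most like 2610008E11Rik, Wdr20 (0.993 each) and Ptx3 (0.982), and Podn most like Mrpl36 (0.989), Pex16 (0.984) and Zkscan5 (0.976). Between members, r was 0.989 for Dcn and Lum, 0.959 for Fmod and Prelp, 0.971 for Prelp and Omd, and 0.156 for Omd and Podn. Within the chromosome 13 cluster, r was 0.917 for Ogn and Omd, 0.835 for Aspn and Omd and 0.756 for Aspn and Ogn.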

How the data were processed

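The authors deposited raw read counts per Ensembl gene for all 6 libraries, not normalized. The submitters' processing notes list STAR 2.5.2b, Trimmomatic 0.36, Subread 1.5.2 (featureCounts) and build GRCm38; strand setting, annotation release and handling of reads with several positions are not stated there. Fibroblast columns carry their sample titles. Early and late columns were matched by the meaning of their names (fibroblasts with a prefixed c as early, the abbreviation of induced progenitors as late), not by order or values; were that reading wrong, early and late would swap.

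Symbols, positions and merged exon lengths came from GENCODE M21 (GRCm38); symbols were found for 49056 identifiers and not for 259, and 2 listed genes were found under newer names. In R 4.3.3, edgeR 4.0.16 kept 16688 genes by its default filter, scaled by TMM and fitted a robust quasi-likelihood model to 3 group means over all 6 libraries, without a block (3 residual degrees of freedom, common biological coefficient of variation 48.6%). Adjusted p-values are Benjamini-Hochberg over all tested genes, with 0.05 as threshold, in 3 comparisons. Each standard error is the log2 fold change divided by the root of its F. Likeness and the plot of the early libraries used log2 CPM with a prior count of 2. The fit was also run on simulated counts to check the code, and no result here rests on that run. DESeq2 1.42.0 was an alternative, beside other scaling, no filter, a block, 2 groups alone and leaving out each library. Counting intervals are exact binomial (95%).

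The members and lists were chosen with earlier results of these data known. Named were all 9 members, called genes of each list (at most 4 per comparison) or its 2 most abundant genes where none was called, genes between and beside the clusters, the 3 genes most like a member, and cell type markers. Tgfb1 was named after its values were seen.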

Additional observations from a re-analysis of the deposited data

How the results depend on the processing

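Of 162 log2 fold changes of the 9 genes refitted without 1 library, 143 kept their direction and side of the threshold, 18 turned direction and 1 passed it; of 162 under other settings, 156 kept both and 6 turned. Scaling by RLE or by total count, no filter, DESeq2 and 2 groups alone turned none. The labels do not say whether replicate numbers pair the libraries. Deviations from the group mean of same-numbered libraries correlated at 0.121 (fibroblast and early), 0.238 (fibroblast and late) and 0.0859 (early and late). Such weak positive values from 2 libraries per group cannot decide whether libraries were paired. With the replicate block, 6 values turned: in early cells Dcn (-0.87) and Lum (-1.20), in late cells Lum (-1.001) and Podn (-0.034), and between late and early cells Lum (0.20) and Omd (0.42). Without 1 library, early log2 fold changes ranged from -5.58 to 2.11 for Dcn, -1.04 to 0.77 for Bgn, -12.3 to 2.24 for Lum, -8.47 to -1.39 for Fmod, -6.18 to -1.75 for Ogn, -9.97 to -2.71 for Aspn, -4.80 to -0.97 for Prelp, -6.21 to -1.47 for Omd and -2 to 4.50 for Podn; late ones from -1.70 to 0.47 for Dcn, -2.01 to -0.99 for Bgn, -1.63 to 1.22 for Lum, -3.79 to -1.19 for Fmod, -2.19 to -0.39 for Ogn, -8.07 to -4.33 for Aspn, -2.05 to -1.34 for Prelp, -3.90 to -1.93 for Omd and -1.50 to 3.44 for Podn. Late minus early ranged from -2.81 to 5.34 for Dcn, -2.15 to -0.35 for Bgn, -2.86 to 12.7 for Lum, -0.82 to 5.55 for Fmod, 0.44 to 4.67 for Ogn, -4.36 to 4.76 for Aspn, -0.77 to 3.06 for Prelp, -1.48 to 3.63 for Omd and -5.00 to 4.49 for Podn. Called members ranged from 0 to 1 in early cells and were 0 in the other comparisons. In alternatives chosen after seeing the data, members below every fibroblast library without 1 library ranged from 5 to 9 in early and 5 to 8 in late cells, and the members' median log2 fold change from -6.18 to -0.97 in early cells, -2.05 to -1.16 in late cells and -1.83 to 4.67 (without early replicate 2) for late minus early.

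Counts over all genes moved more. Early against fibroblast, 255 genes were called, and 514 by total-count scaling, 2337 without a filter, 4006 by DESeq2, 26 with the replicate block, 1469 from 2 groups alone and 0 to 823 without 1 library. Late against fibroblast, 237 were called (107 higher, 130 lower), with 180 higher and 120 lower by total-count scaling, 2495 without a filter, 4651 by DESeq2, 9 with the block, 1016 from 2 groups and 0 to 1058 without 1 library. Late against early, 0 were called, 276 without a filter, 1087 by DESeq2 and 0 to 602 without 1 library. Total-count scaling moved the median log2 fold change of all genes from 0.0038 to 0.173 in early and from 0.111 to 0.27 in late cells. The cause of these shifts was not tested. Fmod, Aspn, Omd and Lum had 7 or fewer counts in early replicate 1, which limits their folds there.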

Other observations

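Outside the family, Col3a1, Dpt and Postn, chosen after their values were seen, showed the same gap between the early libraries. They are not further cases, since Col3a1 was counted above among the collagens and Dpt and Postn among the fibroblast markers. Col3a1, a fibrillar collagen of skin and vessels, was at 16.97 CPM in early replicate 1 and 3888 CPM in early replicate 2, against 1077 and 1300 in fibroblasts. Dpt, which encodes the decorin-binding matrix protein dermatopontin, was at 0.668 and 131 CPM against 103 and 147. Postn, a matrix protein of injured and developing heart, was at 1.20 and 186 CPM, but at 0.638 and 1.68 in fibroblasts and 85.5 and 71.9 in late cells. Col1a1 and Col1a2, the chains of type I collagen, were closer together, at 1910 and 3445 and at 766 and 3258 CPM in early replicates 1 and 2.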
